A study of Saccharomyces cerevisiae with 25 samples.

Results

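Late phosphate starvation was compared with early phosphate starvation in budding yeast: the libraries taken at 165, 180, 195 and 210 min after transfer to medium without phosphate were set against those taken at 60, 75, 90 and 105 min. The contrast used 8 of the 25 libraries of 1 time course and left out the libraries of the transition at 120, 135 and 150 min. A gene entered when it had a value in at least 3 libraries of each window, which kept 4671 of 6650 named genes; another 795 genes were listed in at least 1 of the 8 libraries and were not tested. The cells were BY4741, a haploid laboratory strain of mating type a that lacks HIS3, LEU2, MET17 and URA3, and the labels call it wild type. They had grown overnight in medium rich in phosphate, were washed, and went into medium without phosphate, where a sample was taken every 15 min up to 360 min. Cells of both windows were in medium without phosphate, so the comparison is between earlier and later times of the same starvation. No value was listed for the 4 deleted genes in any of the 8 libraries, and all 6 genes expressed only in a cells passed the filter.

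Yeast senses phosphate through the PHO pathway. When phosphate is short, the inhibitor Pho81 blocks the cyclin-dependent kinase Pho80-Pho85, the transcription factor Pho4 stays in the nucleus, and together with Pho2 it switches on genes for phosphate uptake, secreted phosphatases and the use of stored polyphosphate. When stores run out, growth slows; in starving yeast the kinases PKA and TORC1 lose activity, which is known to turn down genes for ribosomes and to turn up the environmental stress response, a shared programme driven by Msn2 and Msn4.

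The deposited values are log2 of RPM, the reads of a gene per 1000000 reads, so each level is relative to all RNA counted in its library, and an absolute change of a transcript cannot be read from them. Fewer cells of a kind and less RNA per cell cannot be told apart in such bulk samples. Depth was worked out by taking the lowest value of each library as 10 reads. It lay between 354767 reads (195 min) and 1737019 reads (75 min) in the 8 libraries, with 4325 to 5311 genes listed. On that assumption a gene is listed only from a floor of 10 reads, where counting alone gives a log2 SD of 0.46. Each time has 1 library, so the 4 times of a window stood in for replicates, and a p-value here reflects how much serial samples of a single course varied within a window.

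Between the windows 1933 of the 4671 genes changed at an adjusted p under 0.05 in limma's moderated test with Benjamini-Hochberg adjustment, which is 41.4% of the genes tested. Of these, 1566 genes were higher at 165 to 210 min (33.5% of those tested) and 367 were lower (7.86%). All late values listed lay above all early values listed in 1476 genes (31.6%) and below them in 339 genes (7.26%); of the genes tested, 4119 had all 8 values and the rest 6 or 7. The median change over all genes was 0.31 log2 units, on a scale whose linear values have a fixed sum in each library. After each library was centred on its median gene, 563 genes were higher (12.1%) and 721 lower (15.4%); all 367 lower calls were kept, and 1003 of the 1566 higher calls were not. A change of at least 1 log2 unit was found in 336 of the genes called higher and in 162 of those called lower. The typical gene called higher changed by 0.72 log2 units and the typical gene called lower by -0.86.

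**Figure D1:**
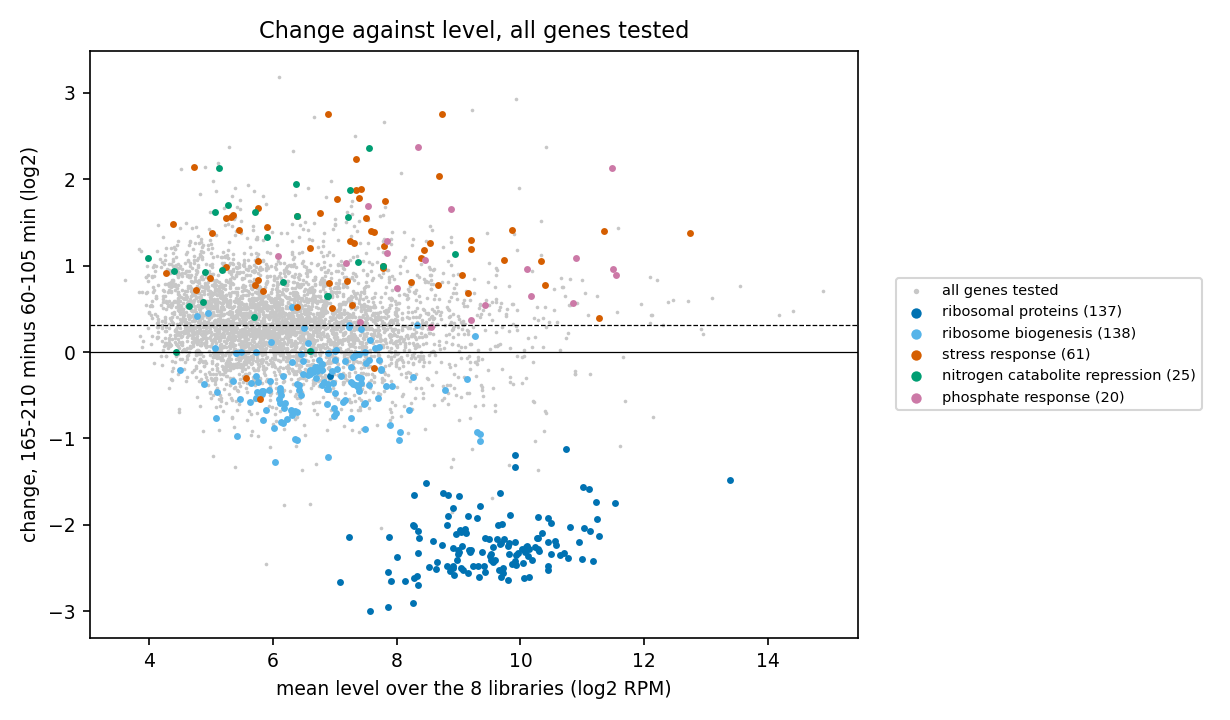
Change from 60-105 to 165-210 min (log2, vertical axis) against the mean level over the 8 libraries (log2 RPM, horizontal axis); each grey point is 1 of 4671 genes tested, coloured points are members of 5 gene lists, and the dashed line marks the median change of 0.31. The ribosomal protein genes lie lowest, between -3.00 and -1.12 apart from RPL15B at -0.28, while most stress, nitrogen and phosphate genes lie above the dashed line.

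Ribosomal proteins gave the largest fall. In the large subunit 80 of 81 tested genes fell and 1 did not pass the test, with a median change of -2.25 log2 units beside 0.31 for all genes. In the small subunit all 56 tested genes fell, with a median of -2.33. Centring moved these medians to -2.58 and -2.66 and left every tested member of both lists lower. In 136 genes the late values all lay below the early ones, and the same number fell by at least 1 log2 unit. Together the large-subunit genes took up 17.4%, 16.6%, 16.6% and 16.1% of the reads early, in order of time, and 4.6%, 4.31%, 4.45% and 2.71% late. Small-subunit genes went from 11%, 10.8%, 10.8% and 10.4% to 2.89%, 2.67%, 2.77% and 1.6%. The 210 min library was the lowest in both subunits. Without it the large-subunit median was -2.08 and 81 of 81 genes were called lower, so the fall did not rest on that library.

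RPL7B, which encodes a large-subunit protein on chromosome XVI (173152 to 174702, build R64), had the largest fall of all named genes. Its levels were 9.06, 9.13, 9.29 and 8.82 log2 RPM at 60 to 105 min and 6.27, 6.16, 6.12 and 5.75 at 165 to 210 min. The groups did not overlap, and the change was -3.00 log2 units (SE 0.14, limma adjusted p = 8.62e-13), a 7.99-fold lower level. An intron-encoded small RNA gene, SNR59, lies inside RPL7B over 78 bases, and reads of both cannot be told apart here. Next came RPL8A at -2.95, RPS26B at -2.90, RPL12A at -2.69, RPS20 at -2.66, RPL20A and RPL21A both at -2.65, RPS8B at -2.64, RPS9B at -2.62, and RPS11A and RPL31A both at -2.61, all of them subunits of the cytosolic ribosome. For RPL31A the early values were 10.96, 10.97, 11.05 and 10.95 log2 RPM and the late ones 8.81, 8.70, 8.91 and 7.09, so that 210 min stood far below the other 3 late libraries. Many of these genes have a near-identical copy, and the labels do not say how reads were shared between copies: values of single copies are uncertain. The smallest falls within the lists were in RPS28A, which changed by -1.12 (SE 0.11, limma adjusted p = 3.72e-08), and in RPL15B, the gene that did not pass. RPL15B had 6.90, 7.07, 7.16 and 7.09 log2 RPM early and 6.67, 6.65, 6.83 and 6.97 late, a difference of -0.28 (SE 0.14, limma adjusted p = 0.112) that became a call after centring (-0.60, adjusted p = 0.00146).

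RPS10A, a small-subunit gene on chromosome XV (867098 to 867852), is shown with the bases upstream of it because it had the largest fall among ribosomal protein genes that carry a core of the Rap1 site there. Rap1 is the factor that recruits Fhl1 and Ifh1 to many of these genes. The window runs from 400 to 101 bases before the start codon, chrXV:866698-866997 on the plus strand (RefSeq, build R64), and the capitals mark the core ACCCATACA, here on the reverse strand as TGTATGGGT at position -340.
RPS10A: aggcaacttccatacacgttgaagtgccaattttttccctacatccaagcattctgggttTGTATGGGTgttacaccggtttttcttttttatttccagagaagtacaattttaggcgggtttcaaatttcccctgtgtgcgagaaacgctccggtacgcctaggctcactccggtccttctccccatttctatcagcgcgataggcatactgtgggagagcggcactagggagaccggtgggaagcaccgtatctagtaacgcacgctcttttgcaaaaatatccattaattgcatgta
Its levels were 10.36, 10.35, 10.31 and 10.30 log2 RPM early and 8.13, 8.10, 8.24 and 6.75 late. The early values were almost level, none of the late values reached them, and the change was -2.53 log2 units (SE 0.30, limma adjusted p = 0.00012). This exact core, searched on both strands, stood in 12.4% of the windows of ribosomal protein genes (17 of 137) and in 0.749% of all 6007 windows. The search for it was added after the data had been seen, and it counts letters, not bound sites.

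Genes that build ribosomes had a smaller median change than the genes of the ribosome itself; the difference between the lists was not tested. Of 138 tested ribosome biogenesis genes 54 fell, 2 rose and 82 did not pass, and after centring 99 were lower and none higher. Their median change was -0.35 log2 units (centred -0.68). Over all genes tested 7.86% were called lower and 33.5% higher. The list took up 2.11%, 2.21%, 2.23% and 2.25% of the reads early and 1.51%, 1.77%, 1.45% and 2.08% late, so that at 210 min its share was nearly that of the early window. Without the 210 min library the median was -0.44 and 75 members were called lower; without the 90 or the 165 min library 35 or 33 were. UTP22, a component of the complex that processes small-subunit RNA, fell by 1.27, and FPR4, a nucleolar prolyl isomerase, fell by 1.21. SNU13, which binds box C/D small nucleolar RNA, fell by 1.02. The 2 genes that rose, FPR3 at 0.31 and SPB4 at 0.53, kept neither call after centring; leaving out the 60 or the 75 min library also ended both calls, and leaving out the 90 min library that of SPB4 (highest adjusted p without 1 library 0.1 and 0.0653).

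NOP58, the core protein of box C/D ribonucleoproteins that guide methylation of ribosomal RNA (chromosome XV, 896825 to 898360, minus strand), is shown because it had the largest fall among biogenesis genes that hold both elements known from this regulon. Its window is chrXV:898461-898760 on the minus strand, printed 5′ to 3′ along the gene, and the capitals mark AAAATTTT (the RRPE element, at -135 and -115) and GATGAG (the PAC element, here on the reverse strand as CTCATC, at -122).
NOP58: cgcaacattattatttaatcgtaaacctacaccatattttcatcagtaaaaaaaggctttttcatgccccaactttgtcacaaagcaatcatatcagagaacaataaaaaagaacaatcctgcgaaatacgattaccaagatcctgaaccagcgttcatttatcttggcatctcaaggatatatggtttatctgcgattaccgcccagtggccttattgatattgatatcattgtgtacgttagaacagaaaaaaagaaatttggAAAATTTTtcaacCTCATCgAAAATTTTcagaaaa
NOP58 stood at 9.96, 9.80, 9.84 and 9.82 log2 RPM early and at 8.57, 8.78, 8.68 and 9.28 late. The 210 min library was here the highest of the late libraries, unlike for ribosomal proteins, and still lay below all early ones. The change was -1.03 log2 units (SE 0.13, limma adjusted p = 2.14e-06). AAAATTTT stood in 70.3% of the biogenesis windows (97 of 138) beside 9.06% of all windows, and GATGAG in 60.1% (83 of 138) beside 18.4%. Among all genes called lower these shares were 33.9% and 31.4%. Among those called lower by at least 1 log2 unit they were 14.4% and 16.2%, the latter below the share of all windows. Genes called higher by at least 1 log2 unit had 3.98% and 15.0%.

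Translation factors and aminoacyl-tRNA synthetases fell as well, beside 7.86% lower and 33.5% higher of all genes tested. Of 39 tested translation factors 20 fell, 2 rose and 17 did not pass (median -0.30, centred -0.63 with 34 lower and none higher). STM1, which binds idle ribosomes and preserves them, had 9.66, 9.87, 9.89 and 9.84 log2 RPM early and 8.06, 8.10, 8.22 and 7.48 late. No late value reached an early one, and the fall was -1.85 (SE 0.14, limma adjusted p = 3.8e-10). EFT2, a gene for elongation factor 2, fell by 1.31, TEF2, a gene for elongation factor 1A, fell by 1.09, and TIF2, a gene for the helicase eIF4A, fell by 0.94. CAM1, a part of elongation factor 1B, and GCN2, the kinase that senses uncharged tRNA, were called higher at 0.35 and 0.48, and neither was a call after centring. CAM1 lost its call without the 60 min library (limma adjusted p = 0.0553), and GCN2 without any of the libraries at 60, 75, 90, 165 or 210 min (highest limma adjusted p = 0.0928). Of 19 synthetase genes 12 fell and none rose (median -0.42, 17 lower after centring), led by DED81 at -0.90, VAS1 at -0.70, GLN4 at -0.67 and KRS1 at -0.61, which charge tRNA with asparagine, valine, glutamine and lysine.

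For RNA polymerases I and III, which make ribosomal RNA and tRNA, 7 of 34 tested genes fell, 3 rose and 24 did not pass, with a median of -0.02. Of all genes tested 7.86% were called lower and 33.5% higher. After centring 14 members of the list were lower and 1 higher. RPA190 fell by 0.93, RPA49 by 0.91 and RPA135 by 0.78, all subunits of polymerase I, and RPC40, a subunit of both enzymes, fell by 0.67. MAF1, the repressor of polymerase III, moved the other way. It had 5.46, 5.53, 6.25 and 5.82 log2 RPM early and 7.12, 7.32, 7.38 and 7.25 late, with no overlap and a change of 1.5 (SE 0.17, limma adjusted p = 3.79e-07; centred 1.18). TFC3 and TFC6, subunits of the polymerase III factor TFIIIC, were called higher at 0.72 and 0.67, but not after centring, and lost the call without the 75 min library (TFC3 also without the 60 min one; highest adjusted p 0.0841 and 0.0879).

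**Figure D2:**
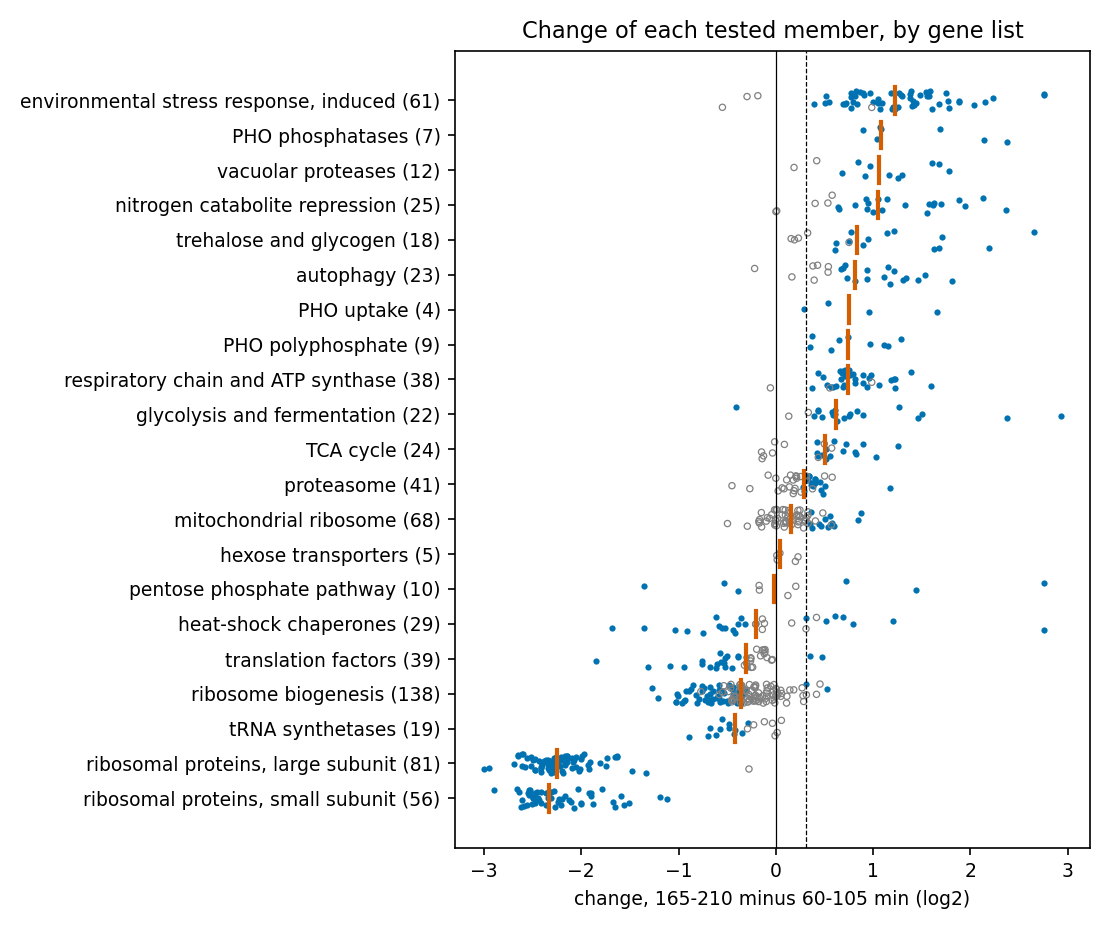
Change from 60-105 to 165-210 min (log2, horizontal axis) of every tested member of 21 gene lists, with the number tested in brackets; filled points passed an adjusted p of 0.05, open points did not, the short vertical bars are list medians, and the dashed line is the median of all genes (0.31). The lists run from a median of 1.23 for the induced stress response to -2.33 for small-subunit ribosomal proteins.

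The induced environmental stress response had the highest median among the lists drawn in the plot of changes by list. Of 61 tested members 57 rose, none fell and 4 did not pass, with a median of 1.23 log2 units, and 52 of them had late values above all early ones. After centring 45 were higher, 3 lower and the median was 0.90. These genes together made up 1.95%, 1.67%, 1.6% and 1.76% of the reads at 60 to 105 min and 3.77%, 3.60%, 4.47% and 4.2% at 165 to 210 min. The members that did not pass were CYC7, an isoform of cytochrome c, at 0.99, GRE2, a reductase, at -0.18, TMA10, a ribosome-associated protein, at -0.30, and YGP1, a secreted glycoprotein, at -0.55; the last 3 were called lower after centring.

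HSP26, the small heat-shock protein that keeps unfolded proteins soluble (chromosome II, 382030 to 382674, plus strand), had the largest change in the list and is shown with its upstream window. That window is chrII:381630-381929, plus strand, and the capitals mark CCCCT, the core of the stress response element bound by Msn2 and Msn4, at position -326.
HSP26: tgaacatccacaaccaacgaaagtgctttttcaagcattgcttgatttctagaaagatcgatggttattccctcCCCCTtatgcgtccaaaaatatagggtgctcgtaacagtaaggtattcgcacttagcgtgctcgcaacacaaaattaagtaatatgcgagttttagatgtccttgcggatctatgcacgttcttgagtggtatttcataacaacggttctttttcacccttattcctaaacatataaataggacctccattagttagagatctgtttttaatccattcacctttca
HSP26 had 7.21, 7.28, 7.42 and 7.54 log2 RPM at 60 to 105 min and 9.58, 9.91, 10.20 and 10.79 at 165 to 210 min. Each later library lay above the one before it, and the change was 2.76 log2 units (SE 0.20, limma adjusted p = 5.74e-08), or 6.77-fold. CCCCT, on either strand, stood in 86.9% of the windows of this list (53 of 61), in 48.9% of those of genes called higher by at least 1 log2 unit, and in 23.6% of all windows.

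Other stress genes that rose include GND2, an isoform of a pentose phosphate enzyme, at 2.75, FMP16, a mitochondrial protein, at 2.23, and MOH1 at 2.15. HSP12, a small protein that protects membranes, went from 11.14, 10.67, 10.40 and 10.43 log2 RPM to 12.04, 11.69, 12.25 and 12.25, a change of 1.40 (SE 0.15, limma adjusted p = 9.29e-07). DDR2, a small stress protein, rose by 1.41. For enzymes of oxidative defence 16 of 28 tested genes rose, beside 33.5% of all genes tested, and none fell. The median was 0.48 (after centring 10 higher and 3 lower). PRX1, the mitochondrial peroxiredoxin, rose by 1.75, CTT1, the cytosolic catalase, by 1.56, GTT1, a glutathione transferase, by 1.55, and GRX1, a glutaredoxin, by 1.42.

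Genes of storage carbohydrates rose in 13 of 18 tested members and fell in none (median 0.84; 9 higher and none lower after centring). GPH1, glycogen phosphorylase, which releases glucose from glycogen, had 6.72, 6.16, 6.25 and 6.72 log2 RPM early and 8.70, 8.96, 9.56 and 9.26 late, a change of 2.66 (SE 0.17, limma adjusted p = 2.41e-10). GDB1, the debranching enzyme, rose by 2.19. GLC3, the branching enzyme, rose by 1.71 and PIG2, a regulator of glycogen synthase, by 1.68, so genes for breakdown and for synthesis of glycogen were both among the members that rose. For trehalose, TPS1, the synthase, rose by 0.95. TPS2, the phosphatase of the same complex, had 6.22, 5.89, 6.21 and 6.39 log2 RPM early and 6.85, 6.59, 6.95 and 5.61 late. It did not pass (0.33, limma adjusted p = 0.27). Its last late value lay below all early ones, and its other late values lay above them. Leaving out single libraries gave TPS2 changes from 0.18 to 0.62 and could make it a call (limma adjusted p from 0.00199 to 0.573). A difference between TPS1 and TPS2 therefore cannot be read from the missing call.

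Glycolysis and fermentation genes were higher in 19 of 22 tested cases, lower in 1 and not passed in 2 (median 0.62; 11 higher and 1 lower after centring). They took up 9.80% to 10.4% of the reads at 60 to 105 min and 15.5% to 16.2% at 165 to 210 min. The changes were unequal between isoenzymes. TDH1, a glyceraldehyde-3-phosphate dehydrogenase known from slowly growing cells, had 8.44, 8.43, 8.34 and 8.63 log2 RPM early and 11.12, 11.41, 11.47 and 11.56 late, a change of 2.93 (SE 0.12, limma adjusted p = 1e-13). Its abundant relative TDH3 changed by 0.70. The enolase ENO1 changed by 2.37 and its relative ENO2 by 0.43. Among the hexose kinases the glucokinase GLK1 rose by 1.27 and HXK1 by 0.89, while HXK2, the kinase that also represses other sugar genes, fell by 0.41, the single member of the list that was lower.

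Ratios within a library do not depend on how libraries are scaled. The log2 ratio of TDH1 to TDH3 was -6.01, -6.12, -6.27 and -5.90 early and -4.01, -3.81, -3.78 and -3.80 late, a shift of 2.23. For ENO1 to ENO2 the shift was 1.94, for GLK1 to HXK2 it was 1.68, and for the pyruvate kinases PYK2 to CDC19 it was 0.90. In the pentose phosphate pathway GND2 moved against GND1, both 6-phosphogluconate dehydrogenases, by 3.29, from -3.26, -3.34, -2.51 and -3.11 to -0.17, -0.12, 0.54 and 0.69. The lactonases SOL4 and SOL3 shifted by 1.61 and the transaldolases NQM1 and TAL1 by 0.52. In each of these pairs the late ratios lay above all early ratios. The pairs were chosen with earlier values of these data known, so these shifts are descriptions, and copies of near-identical sequence can exchange reads.

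**Figure D3:**
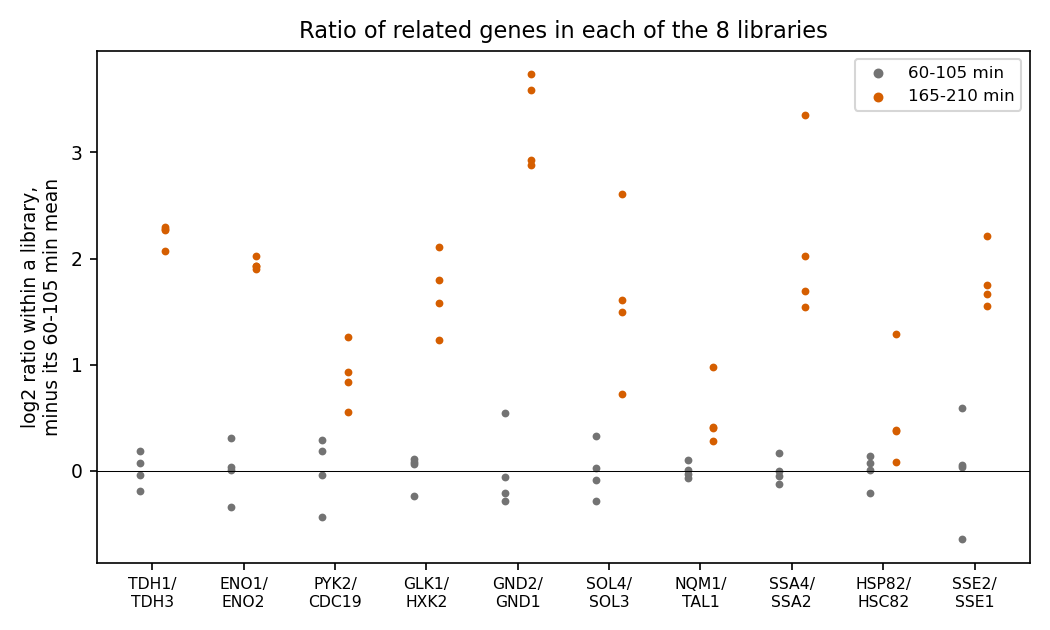
Log2 ratio of 10 pairs of related genes within each library, less the mean of that pair at 60-105 min (vertical axis); grey points are the 4 early and orange points the 4 late libraries. In 9 pairs every late point lies above every early point, and in HSP82/HSC82 the windows overlap.

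Within the pentose phosphate pathway as a list, 3 of 10 tested genes rose, 3 fell and 4 did not pass (median -0.02). The shares over all genes tested were 33.5% higher and 7.86% lower. GND2, SOL4 (1.44) and NQM1 (0.72) were the 3 that rose. RKI1, the ribose-5-phosphate isomerase, fell by 1.36, GND1 by 0.53 and the transketolase TKL1 by 0.38. After centring 2 were higher and 5 lower. None of the 5 tested hexose transporter genes passed, either way and on either scale, and their changes lay between 0.01 and 0.23. HXT5, a transporter known from slow growth, was not tested, because it was listed in 1 early library, at 2.66 log2 RPM, and in all 4 late ones, at 4.07, 4.39, 5.82 and 4.74.

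Phosphate-responsive genes were already above their level in high phosphate at 60 to 105 min and went higher. All 7 phosphatase genes rose (median 1.09) and all 7 remained calls after centring. On a scale from 0 at the early window to 1 at the late window, 6 of them stood at a median of -1.06 in high phosphate. PHO5, the main secreted acid phosphatase (chromosome II, 429548 to 430951, minus strand), had the largest change among PHO genes with a Pho4 site in the window and is shown for that reason. Its window is chrII:431052-431351 on the minus strand, and the capitals mark CACGTG, the high-affinity Pho4 site, at position -253.
PHO5: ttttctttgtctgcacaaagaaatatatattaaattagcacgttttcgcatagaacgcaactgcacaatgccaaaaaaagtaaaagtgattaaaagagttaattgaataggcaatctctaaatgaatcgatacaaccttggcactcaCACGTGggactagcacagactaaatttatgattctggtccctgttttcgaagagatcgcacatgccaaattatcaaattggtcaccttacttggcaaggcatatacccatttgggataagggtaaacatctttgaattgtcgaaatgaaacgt
PHO5 had 9.82, 10.21, 10.64 and 10.99 log2 RPM early and 12.35, 12.48, 12.52 and 12.86 late. It was increasing within the early window and again above all of it later, with a change of 2.13 log2 units (SE 0.22, limma adjusted p = 1.13e-05), or 4.39-fold. CACGTG stood in 60.0% of the windows of 20 PHO genes (12 of 20), in 8.56% of those of genes called higher by at least 1 log2 unit and in 4.54% of all windows.

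PHM8, an intracellular phosphatase that releases phosphate from nucleotides, had 7.10, 6.78, 7.22 and 7.55 log2 RPM early and 9.59, 9.43, 9.45 and 9.68 late. Its change of 2.37 (SE 0.14, limma adjusted p = 6.42e-12) was above that of PHO5, and the windows did not overlap. GDE1, which splits glycerophosphocholine, rose by 1.69. PHO11 and PHO12, secreted phosphatases of near-identical sequence, rose by 1.08 and 0.90 and are uncertain as single genes. PHO8, the vacuolar alkaline phosphatase, rose by 1.03 and HOR2, a glycerol-3-phosphatase, by 1.07. PHO3, the acid phosphatase gene next to PHO5 on chromosome II, which is known for expression in rich phosphate, changed in the opposite direction. It was named after its values had been seen: 6.94, 7.10, 7.03 and 7.19 log2 RPM early and 5.32, 5.02 and 5.56 late, with no value at 195 min, a change of -1.77 (SE 0.18, limma adjusted p = 8.53e-08). The 2 genes are similar in sequence, so reads could be shared between them.

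All 4 tested genes of phosphate uptake rose (median 0.75), and 2 stayed calls after centring. PHO89, a sodium-coupled phosphate transporter, had 7.47, 7.81, 8.19 and 8.71 log2 RPM early and 9.73, 9.94, 9.61 and 9.52 late, a change of 1.65 (SE 0.22, limma adjusted p = 5.53e-05). PHO84, the main high-affinity transporter, rose by 0.96; it overlaps the noncoding gene YNCM0001W over 1764 bases, and strand is not given. SPL2, which lowers low-affinity uptake, rose by 0.54, without a call after centring. PHO86, needed for Pho84 to leave the endoplasmic reticulum, was called at 0.29, changed to -0.03 on centring, and lost the call without any of 6 libraries (60, 75, 90, 165, 180 or 195 min; highest limma adjusted p = 0.1). GIT1, the glycerophosphoinositol transporter, was not tested: it was listed early only at 75 and 90 min, at 3.45 and 3.69 log2 RPM, and late at 5.92, 5.82, 5.40 and 6.42. Of the low-affinity carriers PHO87 rose by 1.03 with overlapping windows and no call after centring, PHO90 changed by -0.43 (limma adjusted p = 0.101; called lower after centring) and PHO91 by -0.02.

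Polyphosphate genes rose in 9 of 9 cases (median 0.74; 5 after centring). YNL217W, a vacuolar polyphosphatase, rose by 1.29 and DDP1, a polyphosphate and inositol pyrophosphate phosphatase, by 1.15. YDR089W, a regulator of the polyphosphate polymerase, rose by 1.12 and VTC1, a subunit of that polymerase, by 0.96. In PHO signalling 5 of 9 genes rose, beside 33.5% of all genes tested. PHM6, a Pho4 target of unknown function, rose by 1.90, KCS1, the inositol hexakisphosphate kinase, by 1.26, and PHO81, the inhibitor of the kinase, by 0.71. VIP1, which makes another inositol pyrophosphate, rose by 0.47 and PHO2 by 0.74, both without a call after centring; the PHO2 call was lost without the 75, 90, 165 or 195 min library (highest limma adjusted p = 0.107) and the VIP1 call without the 60, 75, 165 or 180 min library (highest limma adjusted p = 0.11). With these losses 3 members were called without the 75 or the 165 min library. PHO4 did not pass (0.61, limma adjusted p = 0.11), nor did its kinase genes PHO80 (0.13) and PHO85 (0.39). Leaving out single libraries could make calls of PHO4 and PHO85, with lowest limma adjusted p of 0.00205 and 0.0176.

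Genes under nitrogen catabolite repression, which are kept low while a good nitrogen source is present, rose in 20 of 25 tested cases and fell in none (median 1.05; 14 higher and none lower after centring), although the labels name phosphate as the nutrient withdrawn. GAP1, the general amino acid permease (chromosome XI, 515063 to 516871, plus strand), had the largest change in this list, and its upstream window chrXI:514663-514962 is shown with the capitals marking GATAAG, the GATA factor site, at -343 and -242 and on the reverse strand as CTTATC at -293.
GAP1: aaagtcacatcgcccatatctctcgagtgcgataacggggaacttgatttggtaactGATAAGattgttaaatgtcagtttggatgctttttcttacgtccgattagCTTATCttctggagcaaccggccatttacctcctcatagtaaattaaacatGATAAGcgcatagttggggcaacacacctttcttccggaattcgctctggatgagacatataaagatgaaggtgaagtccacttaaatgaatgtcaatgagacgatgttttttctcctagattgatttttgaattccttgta
GAP1 levels were 6.27, 6.36, 6.34 and 6.53 log2 RPM early and 8.73, 8.68, 8.84 and 8.73 late. Both windows were tight and far apart, and the change was 2.37 log2 units (SE 0.12, limma adjusted p = 1.61e-12), or 5.16-fold. GATAAG stood in 75.0% of the windows of this list (18 of 24), beside 14% of all windows and 21.7% of those of genes called higher by at least 1 log2 unit.

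DAL3, which encodes an enzyme of allantoin breakdown, rose by 2.13, DUR1_2, urea amidolyase, by 1.94 and AGP1, another amino acid permease, by 1.88. The GATA factors themselves moved too: DAL80 rose by 1.70, GAT1 by 1.33 and GZF3 by 0.81 (no call after centring), whereas GLN3 did not pass (0.58, limma adjusted p = 0.114). CAN1, the arginine permease, and CAR1, arginase, stood out with changes of 0.00 and 0.01. MEP2, the high-affinity ammonium transporter, and PUT1, a proline oxidase, were not tested, as each was listed in 2 early and all 4 late libraries. Of the other untested members PUT4 and OPT2 were listed in more late libraries, and PTR2, DAL4 and UGA4 in more early ones. PTR2 had 5.37, 5.05, 4.75 and 4.82 log2 RPM early and 3.60 and 5.02 at 165 and 195 min. Over all lists 47 untested members were listed in more late libraries and 65 in more early ones.

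Genes of autophagy and the vacuole were next. Of 23 tested autophagy genes 16 rose and none fell (median 0.81; 10 higher and 1 lower after centring). YOR152C, a receptor for autophagy of the endoplasmic reticulum, rose by 1.81, ATG22, a vacuolar amino acid exporter, by 1.53, and ATG33, needed for autophagy of mitochondria, by 1.34. ATG8, the protein attached to growing autophagosome membranes, had 4.88, 5.25, 4.87 and 4.8 log2 RPM early and 6.15, 5.88, 6.58 and 7.05 late, a change of 1.46 (SE 0.23, limma adjusted p = 2.74e-05). Among vacuolar proteases and their inhibitors 10 of 12 rose and all 10 were calls after centring (median 1.06). PRB1, proteinase B, rose by 1.61 and its inhibitor PBI2 by 1.67. PEP4, proteinase A, rose by 1.30 and its inhibitor PAI3 by 1.78. In the proteasome list 17 of 41 rose, beside 33.5% of all genes tested, at a median of 0.29, about that of all genes. After centring 1 was higher and 2 lower. On the deposited scale 8 rose without the 75 or the 90 min library and 7 without the 105 min library. UBI4, the polyubiquitin gene induced by stress, was the member that stayed higher, at 1.18.

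Respiration genes rose in 35 of 38 tested cases and fell in none (median 0.74; 24 higher and none lower after centring). INH1 and STF1, inhibitors of ATP hydrolysis by the ATP synthase, rose by 1.59 and 1.23. COX5B, an isoform of a cytochrome oxidase subunit known from low oxygen, rose by 1.39 and QCR10, a subunit of the cytochrome bc1 complex, by 1.23. INH1 had 6.30, 6.40, 6.53 and 6.69 log2 RPM early and 7.88, 7.92, 8.48 and 8.0 late, without overlap. In the TCA cycle 15 of 24 rose (median 0.50; 5 after centring), with LSC2, a succinyl-CoA ligase subunit, at 1.26 and SDH4, a succinate dehydrogenase subunit, at 1.03. In the outer membrane, POR1, the mitochondrial porin, rose by 1.51, while only 5 of 24 genes of import and carriers rose, 1 fell and 9 were lower after centring. Among mitochondrial ribosomal proteins 12 of 68 rose and none fell, and the median was 0.16 (2 higher and 6 lower after centring). Without the 60 or the 75 min library 6 rose, and without the 105 or the 165 min library 7. Of all genes tested 33.5% were called higher and 7.86% lower.

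Chaperone genes split. Of 29 tested 7 rose, 14 fell and 8 did not pass, beside 33.5% higher and 7.86% lower of all genes tested. Their median was -0.21, and 3 were higher and 18 lower after centring. The Hsp70 genes SSB1 and SSB2, whose products bind new chains at the ribosome, fell by 1.69 and 1.03. SSA2, a cytosolic Hsp70, fell by 1.36, and HSC82, the constitutive Hsp90, by 0.91. SSB1 had 10.33, 10.37, 10.39 and 10.45 log2 RPM early and 8.84, 8.72, 8.89 and 8.36 late, a change with SE 0.12 and limma adjusted p = 1.88e-10. The members that rose were HSP26, SSE2, an Hsp110, at 1.21, SSA4, a stress-induced Hsp70, at 0.80, HSP104, the disaggregase, at 0.69, SSA3 at 0.61, HSP42 at 0.52 and SSA1 at 0.31; the last 3, with SSA4, were no calls after centring, where SSA1 stood at -0.01. Leaving out single libraries ended the calls of SSA3 (90 min), SSA1 (105, 165 or 195 min) and HSP42 (60, 75, 105, 165 or 195 min), with highest adjusted p of 0.065, 0.0798 and 0.122. Within libraries, SSA4 shifted against SSA2 by 2.16 and SSE2 against SSE1 by 1.79.

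Of 59 tested regulators of growth and nutrient responses 25 rose, beside 33.5% of all genes tested, 1 fell and 33 did not pass (median 0.47 beside 0.31; 13 higher and 3 lower after centring). Beside the GATA factors, STB3, which binds the RRPE element, and TYE7, an activator of glycolytic genes, both rose by 1.40. TYE7 had 6.48, 6.55, 6.78 and 6.82 log2 RPM early and 7.79, 8.09, 8.0 and 8.36 late, without overlap (SE 0.14, limma adjusted p = 5.09e-08). PNC1, a nicotinamidase, rose by 1.20, NRG2, a repressor of glucose-repressed genes, by 1.16, FHL1, a factor of ribosomal protein genes, by 1.13, RME1, a repressor of meiosis, by 1.09, and PDE1, a cAMP phosphodiesterase, by 1.01. In the PKA pathway TPK2, a catalytic subunit, rose by 0.98 and BCY1, the regulatory subunit, by 0.87, whereas TPK3 did not pass (0.12). IGO1, an effector of the kinase Rim15, rose by 0.72. These calls, from PNC1 to IGO1 and TPK3 aside, held after centring.

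Further regulators were calls on the deposited scale only. USV1, a stress factor, rose by 0.91, MIG2, a glucose repressor, by 0.79, YAK1, a growth-restraining kinase, by 0.78, GCR1, an activator of glycolysis, by 0.71, YAP1, the oxidative stress factor, by 0.46 and REG1, a phosphatase subunit, by 0.43. USV1 could be refitted only without the 2 libraries that had no value for it, so its dependence on single libraries was not tested. YAK1 overlaps the gene IRC9 over 245 bases. The calls of TOS8 (1.0), RGT1 (0.69), NRG1 (0.65) and PHD1 (0.60) were each lost when single libraries were left out: 75 or 195 min for TOS8, 60, 75 or 210 min for RGT1, 105 or 180 min for NRG1, and 60, 75, 105, 195 or 210 min for PHD1, with highest adjusted p of 0.0693, 0.0854, 0.0778 and 0.132. TOD6, a repressor that binds the PAC element, was the regulator that fell, by 0.70, a call lost without any of the 4 early libraries (highest limma adjusted p = 0.13). Other factors of ribosomal genes did not pass: IFH1 changed by -0.17, RAP1 by 0.30, HMO1 by -0.05 and the kinase SCH9 by 0.23; HMO1 was lower after centring (-0.37), as was RPN4, the proteasome factor (-0.59). GCN4, the activator of amino acid synthesis, changed by 0.04. MSN2, SFP1 and HAP4 were not tested. MSN2 was listed in 4 early and 1 late library, SFP1 in 4 and 2, and HAP4 in 2 and 0. MSN2 had 3.87, 4.06, 3.55 and 3.39 log2 RPM early and 4.85 at 165 min. SFP1 had 4.42, 4.11, 4.23 and 4.75 early and 4.94 and 4.8 at 165 and 210 min. The listed late values of both genes lay above their early ones. Neither gene had a value at 180 or 195 min, where the floors were 4.39 and 4.82. MSN2 also had none at 210 min, where the floor was 3.48.

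Among the 12 highest changes some genes belong to none of these groups. YBR285W, of unknown function, led with 4.42, 4.45, 3.93 and 5.23 log2 RPM early and 7.56, 7.56, 7.90 and 7.71 late, a change of 3.18 (SE 0.22, limma adjusted p = 8.22e-11). HPF1, a cell wall mannoprotein, rose by 2.81, GPG1, a proposed subunit of a G protein complex, by 2.72, ICY1 by 2.50 and UGX2 by 2.37. At the other end, 162 genes fell by at least 1 log2 unit, of which 136 encode ribosomal proteins and 26 do not. The 26 include 11 genes in no list, named here after their values were seen. YMR141C (-2.46) and YMR230W-A (-2.03) are small reading frames whose next gene upstream on the same strand is a ribosomal protein gene, RPL13B at 161 bases and RPS10B at 126 bases. YBR191W-A (-2.66) had values close to those of RPL21A in every library, and YOR309C (-1.12) close to those of NOP58; neither name matched the reference used here. OLA1, an ATPase of the translation machinery, fell by 1.34, URA1, dihydroorotate dehydrogenase of pyrimidine synthesis, by 1.24, PPT1, a phosphatase that acts on Hsp90, by 1.09, ATO3, a putative ammonium transporter, by 1.76, HOL1, a polyamine transporter, by 1.1, YLR413W by 1.32, and PHO3 as given above.

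At the other extreme, the 5 genes with the smallest change among the 200 most abundant were ALD6 (0.02), RHR2 (0.03), GCN4 (0.04), PHO88 (-0.05) and SGT2 (-0.05). PHO88, a membrane protein of the endoplasmic reticulum, and SGT2, a chaperone adaptor, were lower after centring (both -0.37). ACT1, actin, also did not pass (0.16, limma adjusted p = 0.216). LIF1, a DNA ligase cofactor, was listed in all 4 late and in no early library, at 3.48 to 4.82 log2 RPM, where the early floors lay between 2.53 and 3.74. Its values at 180 and 195 min, 4.39 and 4.82, were at the floors of those libraries. The 165 min value, 3.48, lay below the 60 min floor of 3.74. LIF1 was also listed at 0 and 45 min, at 2.81 and 3.3, so a late rise of it rests on values near the floor. YOL013W-A and VHR1 were listed in all 4 early and no late library, but their early levels, 4.27 to 5.04 and 3.20 to 4.12 log2 RPM, overlapped the late floors of 3.22 to 4.82, so a fall could not be told from shallow depth.

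The libraries left out of the contrast show when the windows parted. For each gene called with a change of at least 1 log2 unit and listed in all 25 libraries, its position was set to 0 at the mean of 60 to 105 min and to 1 at the mean of 165 to 210 min. The 219 genes that rose had median positions of 0.11, 0.71, 0.76 and 0.98 in the libraries of 105, 120, 135 and 150 min. For the 155 genes that fell the medians were 0.02, 0.29, 0.50 and 0.88. By list, the stress response (33 genes) was at 0.69, 0.86 and 1.06 at 120, 135 and 150 min, the large-subunit ribosomal proteins (80 genes) at 0.33, 0.50 and 0.86, and the nitrogen genes (10 genes) at 0.44, 0.65 and 0.85. No test was made of these differences in order, and the 120 min library, at 209394 reads, was the shallowest of all. Its floor was 5.58 log2 RPM, so a weakly expressed gene that rose entered only if it was already above that level at 120 min. The filter kept 219 of 336 genes that rose by at least 1 log2 unit and 155 of 162 that fell. Positions at 120 min therefore cannot be compared between genes that rose and genes that fell.

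**Figure D4:**
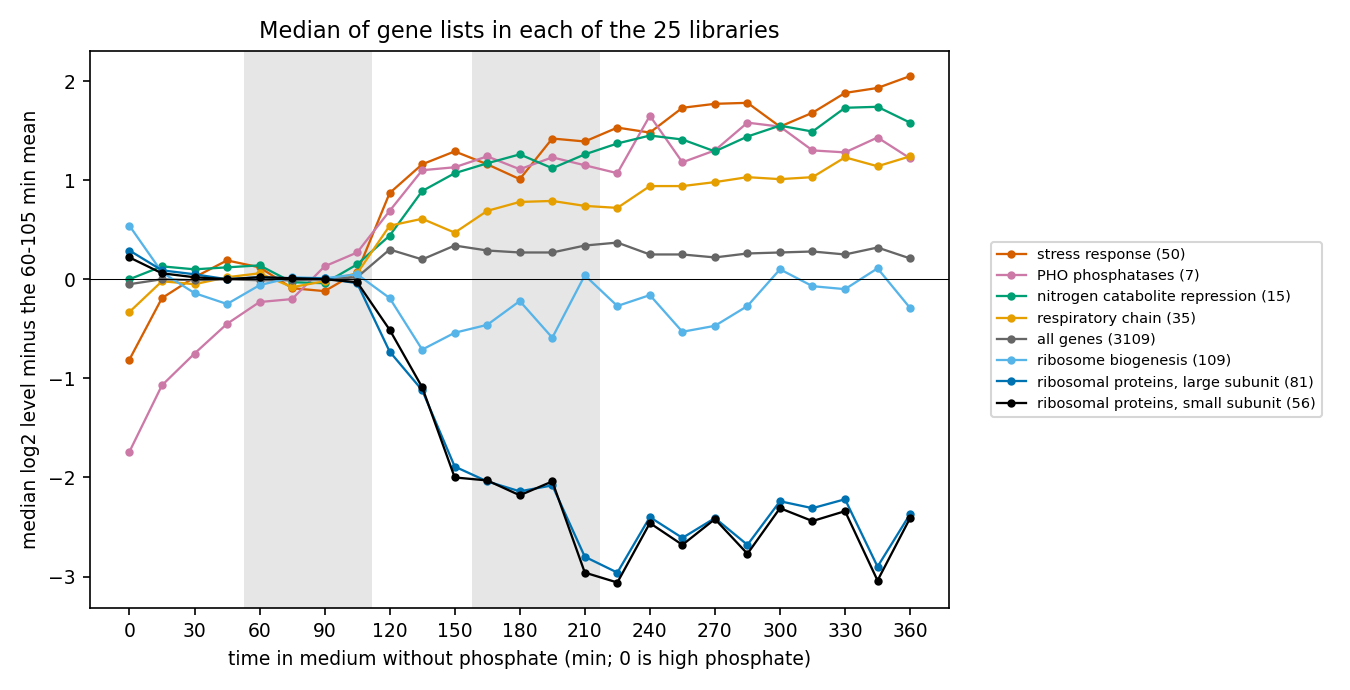
Median log2 level of 8 gene sets in each of the 25 libraries, less each gene's mean at 60-105 min (vertical axis), against time without phosphate (horizontal axis; 0 is high phosphate); grey bands mark the windows compared, and brackets give the genes listed in all 25 libraries. Ribosomal protein medians drop between 105 and 150 min and stay low to 360 min, while the stress and nitrogen genes stay high.

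Most of the large changes were still there in the last libraries. Among 324 genes that rose by at least 1 log2 unit and could be followed, the mean over 285 to 360 min kept a median of 1.21 of the change, and among 161 that fell it kept 1.09. The plot of list medians by time shows another course for the ribosome biogenesis genes, most of them with smaller changes, whose median was near its early level in several of the last libraries. The stress response reached 8.38% of the reads at 360 min. Among genes of any size of change, those whose later mean had moved furthest back, to the early level or past it, were POL30, the replication clamp, at 7.4, 7.48, 7.52 and 7.27 log2 RPM early, 8.12, 7.90, 7.76 and 7.66 late and with a mean of 6.43 over 285 to 360 min, below both windows, with RAD27 and HTB2 among genes called higher and TIP1, HSP82 and NOG2 among genes called lower. All but POL30 lost the call when some single libraries were left out, with highest adjusted p of 0.138 for RAD27 (60, 75, 90, 105, 165 or 195 min), 0.126 for HTB2 (60, 75, 90, 165, 180 or 195 min), 0.169 for TIP1 (90, 105, 165, 180 or 195 min), 0.134 for HSP82 (60, 75, 90, 180 or 210 min) and 0.0726 for NOG2 (90 or 195 min).

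Fewer genes passed between neighbouring windows. Between 15 to 45 min and 60 to 105 min 62 of 4906 genes changed by the same test (1.26%), 27 higher and 35 lower, and the median absolute change was 0.13 log2 units beside 0.39 in the contrast; 543 genes had an unadjusted p under 0.05. Between 165 to 210 min and 225 to 270 min 2 of 4696 genes changed (0.0426%), MHP1, a microtubule-binding protein, by 1.17 and RPS9A by -1.0, with a median absolute change of 0.17; 461 genes had an unadjusted p under 0.05. Fitted without trend and robust moderation, neither pair had a call. Both counts moved when a library was left out: to between 19 and 93 for the earlier pair and to between 0 and 141 for the later pair, the 141 being reached without the 210 min library. These pairs share libraries with the contrast, and the 210 min library, lowest in ribosomal proteins of the 8, enters the later pair as well as the contrast; what sets it apart was not tested.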

How the data were processed

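RNA-seq was done on 25 samples of BY4741, 1 for each time. Per the labels' protocols, cells were broken with lyticase, RNA was extracted in a plate kit, and libraries were sequenced on an Illumina HiSeq. The authors deposited log2 values for 6650 named genes. Bowtie and genome build R64 are named in the submitters' processing notes; for the counter, strand and treatment of reads with several matches the labels name nothing. The series' design text speaks of scaling to the first time, but the linear values of every column sum to 1000000, so they were used as RPM. The lowest value of each library was taken as 10 reads, which gave the depths. With that unit, between 95.21% and 97.55% of low values were whole multiples of 1 read, within 0.01 reads.

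The contrast was fitted with limma 3.58.1 in R 4.3.3 (lmFit, eBayes with trend and robust, two-sided, Benjamini-Hochberg over all genes tested) on the deposited log2 values with no pseudocount, for genes with at least 3 values in each window, and again after centring. The code was tested on simulated data. Tables and plots used Python 3.11.15, pandas 2.3.3, numpy 2.4.6 and matplotlib 3.10.9. The contrast, the gene lists and the isoenzyme pairs were chosen with earlier results of these data known. Genes were named by a rule: the 12 highest and 12 lowest calls without overlap between windows, up to 4 members of each list with the largest change in its main direction and those that passed in the other direction, the regulators, genes listed in a single window, genes that came back furthest, and the smallest changes among the 200 most abundant genes. Genes outside it are said to be so or give context to a named partner or list. Alternatives covered scaling, filters, missing values, pseudocount, moderation, covariates, weights and leaving out each library. Sequences and coordinates are from RefSeq, build R64.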

Additional observations from a re-analysis of the deposited data

Results flagged for a closer look

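There were 434 groups of 4 libraries (each named gene or list share in each window), and those with all 4 values listed were looked at. In 23 of them a library was set apart from the other 3 by Dixon's criterion, where chance gives about 1 in 20 groups. Of the 23, 10 were at 210 min and 4 at 60 min.

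At 210 min the large-subunit ribosomal proteins took up 2.71% of the reads beside 4.31% to 4.6% in the other late libraries. In the same library RPL21A stood at 5.78 log2 RPM, RPL31A at 7.09, RPS10A at 6.75 and RPS28A at 9.93, each below the other 3. YBR191W-A at 5.68 and YMR230W-A at 6.34, VAS1 at 6.81, YDR089W at 6.11 and PHO11 at 11.38 were also lowest there. What sets this library apart was not tested.

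At 60 min EFT2 (10.33 log2 RPM), ERG25 (9.04), GZF3 (5.50) and SSB2 (10.62) stood below the other early libraries. The remaining cases were ATG8 at 75 min (5.25 log2 RPM, above the others), TKL1 at 90 min (8.88, below), TMA10 at 90 min (5.40, below), LEU9 at 105 min (7.62, above), SSE1 at 105 min (10.30, below), ATG33 at 165 min (7.67, below), LSC2 at 180 min (7.85, below), PYK2 at 195 min (7.64, below) and REG1 at 195 min (7.45, above).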

How the results depend on the processing

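The higher and lower calls changed with the scaling. Centring on the median gene gave 1284 genes, 563 higher and 721 lower, and scaling without ribosomal protein genes gave 502 higher and 809 lower, in place of 1566 and 367. Tested against a change of 1 log2 unit, 205 genes passed, 70 higher and 135 lower. With depth as a term, 372 genes were higher after centring. Without trend and robust moderation, 0 genes passed between 15 to 45 and 60 to 105 min, higher 0 and lower 0, and 0 between 165 to 210 and 225 to 270 min. Other filters, the pseudocount, missing values set to the floor, weights, time terms and a fit of 24 libraries kept the count of calls within 1.5 times of 1933. Leaving out 1 library gave 1526 to 2026 calls, 1222 to 1602 higher and 304 to 424 lower, and after centring 998 to 1423, 421 to 668 and 577 to 755. The earlier neighbouring pair ranged from 19 to 93 calls (9 to 44 higher, 10 to 49 lower) and the later pair from 0 to 141 (0 to 57 higher, 0 to 84 lower). Among genes with a call on either scale, the sign changed on centring, and on scaling without ribosomal protein genes, for FPR3 (-0.01 and -0.05), HTB2 (-0.02 and -0.06), RAD27 (-0.02 and -0.06), PHO86 (-0.03 and -0.07) and SSA1 (-0.01 and -0.05), and on the latter scale for CAM1 (-0.01) and GCN4 (-0.32). Genes with small positive changes and no call also turned negative on centring. Of 213 tested genes named, 65 had the same call under every alternative. The test against a change of 1 log2 unit, which asks a stricter question, by itself ended the call of 129 of them. Leaving out 1 library also gave a call to 11 named genes that had none in the contrast. Among them were PHO4, PHO85, PHO90, TPS2, CYC7, YGP1 and ACT1. Depth limits the genes near the floor of 5.76 to 28.2 RPM. The cause of these shifts was not tested. No paired analysis was possible because each time has 1 library and the numbers within a window only name it.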

Other observations

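Among the cell cycle lists no tested member fell. Of 50 genes of G1/S and replication 20 rose, a share near the 33.5% of all genes tested (median 0.38 log2 units beside 0.31 for all genes), and after centring 5 were higher and 1 lower. RNR2 and RNR4, subunits of ribonucleotide reductase, rose by 1.28 and 1.27. In G2/M 14 of 31 rose (median 0.47, 4 higher after centring), led by CLB1, a mitotic cyclin, at 1.42. In M/G1 14 of 18 rose (median 0.71, 7 higher after centring), among them PCL9, a cyclin of Pho85, and EXG1, a cell wall glucanase, both at 1.29. Histone genes rose in 9 of 11 cases (median 0.56, 4 after centring), with the linker histone HHO1 at 0.92 and HHF1, a histone H4 gene, at 0.83. Copies of histone genes are similar in sequence and uncertain one by one.

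Biosynthesis was mixed. Among Gcn4 targets of amino acid synthesis 17 of 61 rose, 8 fell and 36 did not pass (median 0.17; 4 higher and 18 lower after centring; 5 fell without the 90 or the 195 min library). LYS1, an enzyme of lysine synthesis, rose by 1.15 and HIS4, of histidine synthesis, by 1.07, while LEU9, a leucine synthesis isoenzyme, fell by 1.30 and ILV5, of branched-chain synthesis, fell by 0.71. Purine genes rose in 13 and fell in 8 of 32 cases (median 0.16; 6 higher and 10 lower after centring), with ADE17 at 1.24 and IMD4, an IMP dehydrogenase, at -0.90. Sulfur genes rose in 7 and fell in 5 of 27 (median 0.08; 2 higher and 11 lower after centring; 3 fell without the 180 min library), with MMP1, a permease of S-methylmethionine, at -1.2. Ergosterol genes rose in 17 of 25 and fell in none (median 0.48; 7 higher and none lower after centring), with ERG25, a sterol C-4 methyl oxidase, at 1.37. Cell wall genes rose in 16 and fell in 2 of 35 (median 0.50; 9 higher and 4 lower after centring), with GSC2, a glucan synthase, at 1.86 and UTR2, a wall crosslinking enzyme, at -0.58.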
